A study of Mus musculus with 16 samples.

Results

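The Sall and Zic genes encode zinc-finger transcription factors, and 8 of them were followed here through every deposited peak list, namely Sall1, Sall2, Sall3, Sall4, Zic1, Zic2, Zic4 and Zic5. They are 8 of the 26180 gene symbols with curated RefSeq transcripts. For each gene, the peaks within 2500 bp of its annotated start sites (the start window) and across its body were taken from 6 lists. The lists come from mouse R1 embryonic stem cells (ESCs), immunoprecipitated for H3K4me3, for Suz12 or for H3K27me3. LIF-ESCs were kept in 100 units/ml of leukaemia inhibitory factor (LIF) without 4-hydroxytamoxifen (OHT). Myc-ESCs were kept in 50 nM OHT without LIF. OHT activates a fusion of Myc, carrying the T58A allele, with the estrogen receptor (MycER), a transgene that the study describes for both cultures. Both were grown without feeders on gelatin in medium with fetal calf serum and vitamin C. The study describes MycER lines as clones, and the labels do not name the clone behind these libraries, so the values stand for that line. Behind the 6 lists stand 16 libraries by the labels, of which 4 are inputs and each culture and antibody has 2.

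Sall proteins are repressors and activators of developmental genes that bind the NuRD chromatin-remodelling complex, and Sall4 is part of the transcription factor network of pluripotent cells. Zic proteins act in the dorsal neural tube, the neural crest and the cerebellum, and several of them lie in the genome as head-to-head pairs. H3K4me3 is the histone mark of active or poised start sites, H3K27me3 is the mark that Polycomb repressive complex 2 (PRC2) deposits, and Suz12 is a core subunit of PRC2. In ESCs, many silent developmental genes carry H3K4me3 and H3K27me3 together, a state called bivalent.

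The depth of the libraries is unknown, because the lists hold positions and scores and no read counts. Each culture and antibody has 1 list, so no value below has a replicate error and no difference was tested. The score is the peak caller's own log-scale measure of the p-value and starts at 50. A score of exactly 3100 recurs at 4006 and 3185 H3K4me3 peaks and at 161 and 522 Suz12 peaks of LIF-ESCs and Myc-ESCs, with few above it, so peaks with that score cannot be ranked among themselves. The H3K27me3 lists differ most in size, with 3120 peaks in LIF-ESCs against 16717 in Myc-ESCs, and peaks with a score under 100 make up 89.1 and 79.8% of them. The H3K4me3 lists hold 32469 and 30345 peaks and the Suz12 lists 11305 and 13907. How far the difference in list size enters the values below was not tested. The H3K27me3 peak counts are therefore also given with the Myc-ESC list shortened by score to the length of the LIF-ESC list, an alternative chosen after the data were seen, which leaves Myc-ESC peaks from a score of 103.8 upwards. All 8 genes of a list of pluripotency genes had H3K4me3 at a start site in both cultures, and Suz12 was at 1 of them in LIF-ESCs (Esrrb) and 2 in Myc-ESCs (Esrrb and Klf4). Suz12 was at 5 of 5 neural, 4 of 4 endoderm and 4 of 4 mesoderm regulators in both cultures, at 2 of 3 trophoblast genes in both, and at 1 of 4 fibroblast genes in LIF-ESCs against 3 in Myc-ESCs. H3K27me3 was at 3 and 5 of the neural, 3 and 4 of the endoderm, 0 and 3 of the mesoderm, 2 and 2 of the trophoblast, 0 and 1 of the fibroblast and 0 and 1 of the pluripotency genes, in LIF-ESCs and Myc-ESCs respectively.

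Sequences at or near the findings are shown first, with CpG dinucleotides in capitals, because PRC2 and H3K4me3 are both known to favour CpG-rich DNA. The promoter table of RefSeq (GRCm38.p6) held entries for 5 of the 8 genes, Sall1, Sall2, Zic1, Zic4 and Zic5. It held none for Sall3, Sall4 and Zic2. Letters that fall in an annotated exon are left out. The Sall2 start sites are shown because H3K4me3 differed at the first and Suz12 at the second. The Sall1 stretch is a Suz12 peak that was in the Myc-ESC list only, and Zic5 had only low-scoring Suz12 peaks in its start window. No Suz12 peak of either list overlaps the stretches printed for Sall2 and Zic5. The Zic1, Zic4 and Zic2 stretches lie under H3K27me3 peaks.
Sall2, 5′-most start site, chr14:52328763-52328920, minus strand: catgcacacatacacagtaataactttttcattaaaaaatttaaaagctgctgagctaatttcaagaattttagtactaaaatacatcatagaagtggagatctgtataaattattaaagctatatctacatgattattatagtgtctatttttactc
Sall2, downstream start site, chr14:52316324-52316573, minus strand: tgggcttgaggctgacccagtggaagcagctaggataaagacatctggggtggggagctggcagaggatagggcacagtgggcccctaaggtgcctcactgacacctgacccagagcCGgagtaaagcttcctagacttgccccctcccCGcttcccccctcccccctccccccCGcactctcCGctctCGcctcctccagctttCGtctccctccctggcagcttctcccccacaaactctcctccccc
Sall1, Suz12 peak, chr8:89044785-89045009, plus strand: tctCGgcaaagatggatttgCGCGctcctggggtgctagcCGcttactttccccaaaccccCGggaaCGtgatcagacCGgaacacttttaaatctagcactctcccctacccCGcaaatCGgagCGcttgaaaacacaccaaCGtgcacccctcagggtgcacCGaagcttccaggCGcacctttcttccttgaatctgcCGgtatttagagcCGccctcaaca
Zic5, start site, chr14:122465678-122465908, minus strand: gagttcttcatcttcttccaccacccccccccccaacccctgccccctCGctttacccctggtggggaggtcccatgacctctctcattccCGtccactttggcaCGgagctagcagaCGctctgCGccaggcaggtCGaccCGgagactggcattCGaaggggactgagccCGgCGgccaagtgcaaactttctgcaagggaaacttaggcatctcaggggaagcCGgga
Zic1, H3K27me3 peak in intron 2, chr9:91363491-91363790, plus strand: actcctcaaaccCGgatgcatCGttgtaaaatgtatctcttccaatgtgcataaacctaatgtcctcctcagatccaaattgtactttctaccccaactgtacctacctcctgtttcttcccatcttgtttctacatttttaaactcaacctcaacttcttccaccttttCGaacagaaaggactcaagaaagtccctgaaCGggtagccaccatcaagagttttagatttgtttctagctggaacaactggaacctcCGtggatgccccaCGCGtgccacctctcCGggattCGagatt
Zic1 and Zic4, H3K27me3 peak between their start sites, chr9:91367687-91367845, plus strand: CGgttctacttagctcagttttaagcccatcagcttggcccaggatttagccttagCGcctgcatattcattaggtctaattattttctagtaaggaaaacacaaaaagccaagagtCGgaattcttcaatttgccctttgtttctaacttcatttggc
Zic2, bases of intron 1 under H3K27me3 peaks of both cultures, chr14:122477615-122477743, plus strand: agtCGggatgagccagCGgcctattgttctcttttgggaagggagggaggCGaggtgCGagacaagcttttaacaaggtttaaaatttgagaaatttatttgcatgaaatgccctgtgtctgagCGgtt

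Counted over the 250 bases before each start site, CpG content varied widely among these genes. The median promoter of the 32851 in the table held 6 CpG and 52.4% G+C, with an observed over expected CpG ratio of 0.373. The 5′-most start site of Sall2 held 0 CpG and 28.0% G+C, and 7.87% of all promoters hold none. Its downstream start site held 6 CpG and 64.4% G+C. Zic1 held 27 CpG, at a ratio of 0.995, and 8.56% of all promoters hold as many. Zic4, whose start lies 3204 bp away, held 4 CpG at 44.4% G+C. Zic5 held 11 CpG, and the 3 start sites of Sall1 held 13, 25 and 30. The E-box CACGTG, the letters bound by Myc with its partner Max, which read the same on both strands, was found in 1 of the 8 member entries. It begins 98 bases before the Zic1 start, and 7.15% of all promoters of 300 bases hold it. A match is a description of letters and was not tied to binding here.

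At the start windows, H3K4me3 was at 6 of the 8 genes in LIF-ESCs and at all 8 in Myc-ESCs, against 62.2 and 63.3% of all genes. Zic1 and Zic4 were the pair with H3K4me3 in Myc-ESCs only, a pattern of 2.35% of all genes, and no member had it in LIF-ESCs only (1.21% of all genes). Suz12 was at 6 members in each culture, against 12.1% of all genes under LIF and 14.6% under OHT. Sall3 and the 4 Zic genes carried it in both. Sall2 carried it in LIF-ESCs only (1.28% of all genes) and Sall1 in Myc-ESCs only (3.82% of all genes). H3K27me3 was at Zic2 alone in LIF-ESCs, against 3.82% of all genes, and at Zic1, Zic2 and Zic4 in Myc-ESCs, against 10.7%. The pattern of Zic1 and Zic4, with H3K27me3 in Myc-ESCs only, was that of 7.65% of all genes, and no member had H3K27me3 in LIF-ESCs only (0.733% of all genes). Zic1, Zic2 and Zic4 also kept H3K27me3 in Myc-ESCs when that list was shortened by score to 3120 peaks, the length of the LIF-ESC list. The start windows of Sall2 and Zic4, which have distant start sites, add up to 10002 bp and that of Sall1 to 6301 bp, against 5001 bp for the others, which gives those genes more room for a peak.

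**Figure D1:**
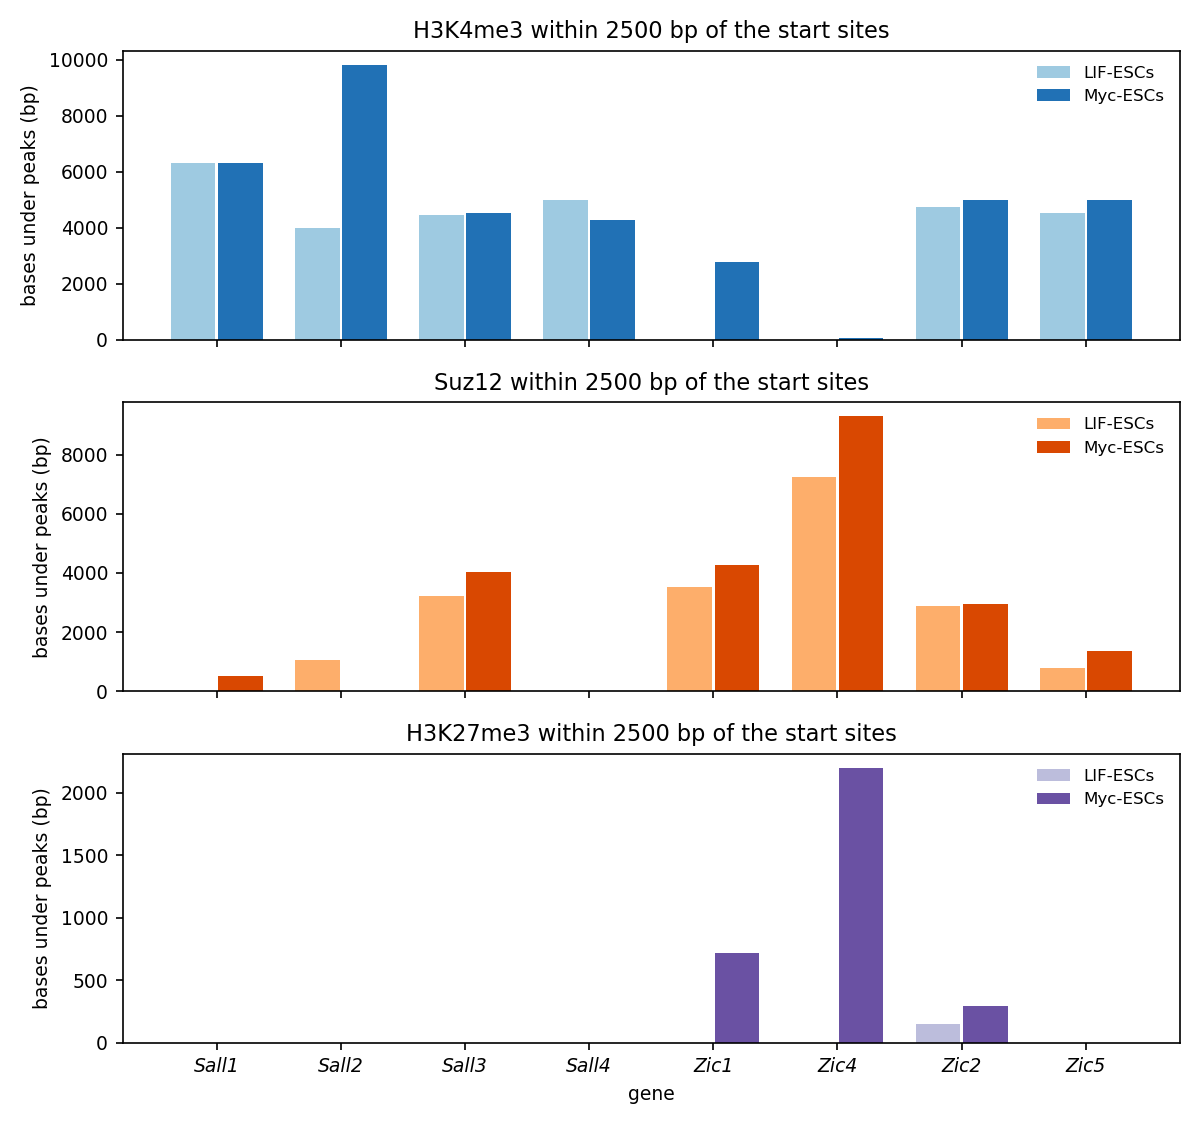
Bases under deposited peaks (bp, linear axis) within 2500 bp of the start sites of each gene, for H3K4me3, Suz12 and H3K27me3, with a light bar for LIF-ESCs and a dark bar for Myc-ESCs. H3K27me3 bars stand at Zic1, Zic4 and Zic2 only, with 721, 2202 and 292 bp in Myc-ESCs against 0, 0 and 151 bp in LIF-ESCs.

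In bases, Suz12 covered more of the start window in Myc-ESCs at 6 of 8 genes (12.6% of all genes) and H3K27me3 at 3 (10.4% of all genes). This was common among marked genes. Of the 3821 genes with Suz12 at the start in Myc-ESCs, 3295 had more bases than in LIF-ESCs, as did all 6 such members. For H3K27me3 it was 2722 of 2811 genes and all 3 such members. Among all 3156 genes with Suz12 at the start in LIF-ESCs, H3K27me3 was there at 26.2% in LIF-ESCs and at 66.3% in Myc-ESCs. Of the 6 such members, it was at 1 in LIF-ESCs and at 3 in Myc-ESCs. The other 3 were Sall2, which had no Suz12 peak in Myc-ESCs, Sall3, whose H3K27me3 peaks fell just outside the window, and Zic5. Of 2822 genes with Suz12 in both cultures, 7.44% had no H3K4me3 in LIF-ESCs, and 2 of the 5 such members, Zic1 and Zic4, belong to that share. These share part of their start windows, so they do not count as independent.

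Over gene bodies, H3K4me3 lay on 6 members in LIF-ESCs and on 8 in Myc-ESCs (64.2 and 65.3% of all genes). Suz12 lay on 6 and 5 (12.0 and 14.6%), and H3K27me3 on 2 and 4 (3.79 and 10.7%). The 2 with H3K27me3 on the body in LIF-ESCs were Zic2 and Zic4, and Myc-ESCs added Zic1 and Sall3. H3K4me3 peaks in start windows and bodies together numbered 10 under LIF and 14 under OHT. The start windows and bodies held 37 and 35 Suz12 peaks of 30277 and 40709 bases in all, so the Myc-ESC peaks were fewer and longer. Of the 37 LIF-ESC Suz12 peaks, 34 overlapped a Myc-ESC one, and the other 3 were those of Sall2. For H3K27me3 the numbers were 4 (672 bases) in the LIF-ESC list against 40 (7952 bases) in the Myc-ESC list. With lists of equal length, 10 of the 40 remained (3147 bases), so the numbers were then 4 and 10. Of these 40, 37 lay at Zic1 and Zic4, and 29 scored under 100.

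**Figure D2:**
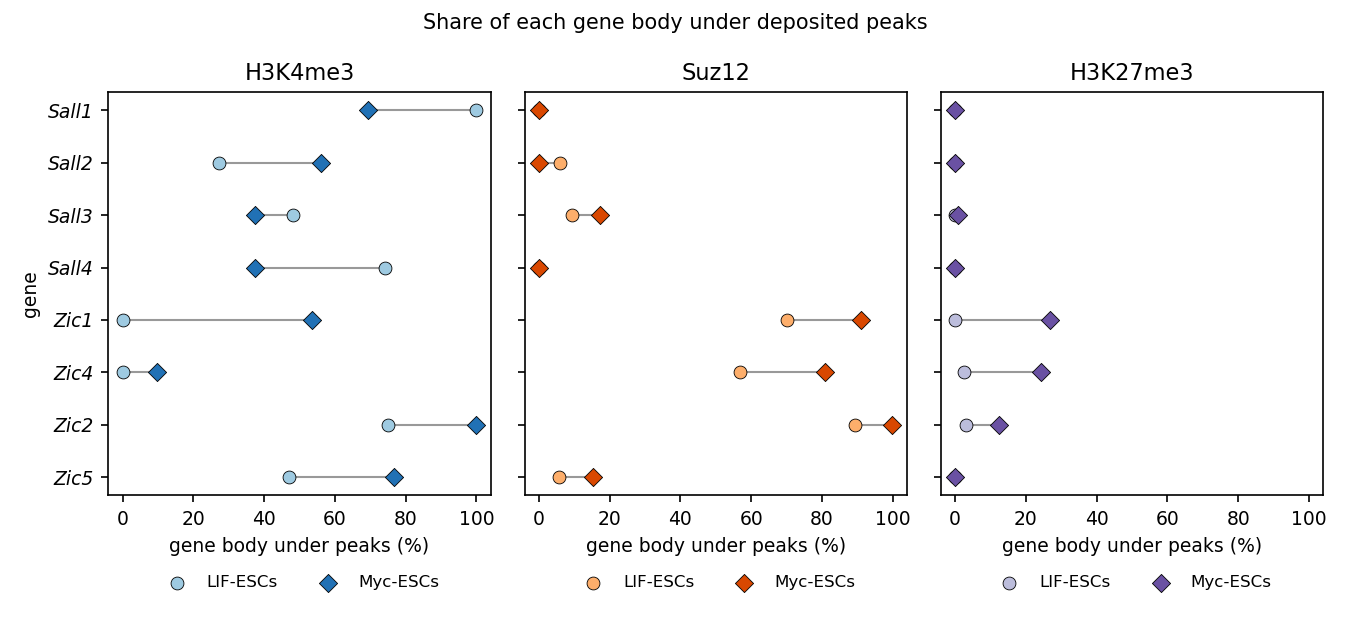
Share of each gene body under deposited peaks (%), with a circle for LIF-ESCs and a diamond for Myc-ESCs joined by a line, for H3K4me3, Suz12 and H3K27me3. Suz12 covers 56.9 to 89.4% of Zic1, Zic4 and Zic2 in LIF-ESCs and 80.9 to 99.8% in Myc-ESCs, whereas Sall1 and Sall4 have no Suz12 on the body in either culture.

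Zic1 (gene ID 22771), a regulator of the dorsal neural tube and cerebellum, lies on the minus strand of chromosome 9 from 91358058 to 91365768. Its H3K4me3 was in the Myc-ESC list only. In LIF-ESCs no H3K4me3 peak was on it, and the nearest lay 102847 bp from its start. In Myc-ESCs a peak of 2770 bp (91363743 to 91366512, score 169) covered the start site, exons 1 and 2 and part of intron 2. A weaker one of 2108 bp (91360580 to 91362687, score 92.6) reached from intron 2 over exon 3 into the 3′ UTR in exon 4. Neither overlapped a LIF-ESC peak.

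Suz12 was already extensive on Zic1 in LIF-ESCs. It had 4 peaks and 3512 bases in the start window, the strongest at a score of 3100 from 91362297 to 91365149, from 619 bp downstream of the start onward. In Myc-ESCs the start window held 4278 bases, and the strongest peak ran from 91360931 to 91365520, or 4590 bp. A peak of 452 bp (91365545 to 91365996, score 338) lay over the start site itself, where the LIF-ESC list had none. The share of the body under Suz12 was 70.1% in LIF-ESCs against 90.9% in Myc-ESCs. H3K27me3 was absent from the gene in the LIF-ESC list, whose nearest peak lay 7920 bp from the start. In Myc-ESCs 11 peaks covered 26.9% of the body, and 3 of them remained with lists of equal length. The 2 within the start window on the gene were in intron 2 (91363488 to 91363794, score 128) and across exon 2 and intron 2 (91363803 to 91364057, score 108), and 9 others fell in the 3′ UTR of exon 4, the strongest at a score of 106.

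Zic4 (gene ID 22774), which acts with Zic1 in cerebellar development, lies on the plus strand from 91368972 to 91389351, with a second start site at 91377972 in intron 2 of the longer transcript. Its start lies 3204 bp from that of Zic1, and the start windows share 1797 bp. It had no H3K4me3 peak in LIF-ESCs. Its H3K4me3 call in Myc-ESCs rests on 41 bp of the Zic1 peak, and it is lost with a window of 1000 bp or when an overlap of at least 100 bp is asked. A weak peak of its own (1967 bp, score 64.3) lay in intron 3, 51 bp outside the window of the second start site. H3K4me3 on this pair was therefore centred on the Zic1 start.

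Suz12 on Zic4 covered 7257 bases of the start windows in LIF-ESCs against 9305 in Myc-ESCs, out of 10002. On the body, 12 peaks covered 56.9% in LIF-ESCs, and 10 longer peaks covered 80.9% in Myc-ESCs. In Myc-ESCs 3 peaks of 5373, 3495 and 2670 bp followed one another from 91376590 to 91388165, whereas the longest LIF-ESC peak there was 3787 bp long, over the second start site and exon 3. For H3K27me3, the LIF-ESC list had 3 peaks of 514 bases on the body, with scores from 57.6 to 85.0. The Myc-ESC list had 25 H3K27me3 peaks of 4949 bases there, of which 5 (1736 bases) remained with lists of equal length. None of the LIF-ESC H3K27me3 peaks lay in a start window, and 11 Myc-ESC H3K27me3 peaks did. The strongest was 615 bp long (91376504 to 91377118, score 233) in intron 2, upstream of the second start site. By score over the body, the next lay in the 3′ UTR, outside the start windows (91386681 to 91386992, score 170). After it came a peak in intron 3 (91379652 to 91379906, score 131), inside a start window. The peak printed above between the start sites of the pair (91367687 to 91367845, score 71.6) was in both start windows. Predicted RefSeq models and GENCODE place further Zic4 start sites in this stretch and in the gene, and with these the LIF-ESC list also had H3K27me3 at a Zic4 start.

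Seen along the chromosome, Suz12 peaks separated by at most 2500 bp formed 2 domains over this pair in each culture. The first spanned 20428 bp in LIF-ESCs against 20605 bp in Myc-ESCs, and the second 14750 and 14903 bp. Their extent was thus nearly the same. Within the second, the share under Suz12 peaks was 69.1% in LIF-ESCs against 97.4% in Myc-ESCs, and in the first it was 59.8 and 70.3%. H3K27me3 peaks within each numbered 2 in LIF-ESCs against 18 in Myc-ESCs. With lists of equal length, 3 of the 18 in the first and 5 of the 18 in the second remained.

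**Figure D3:**
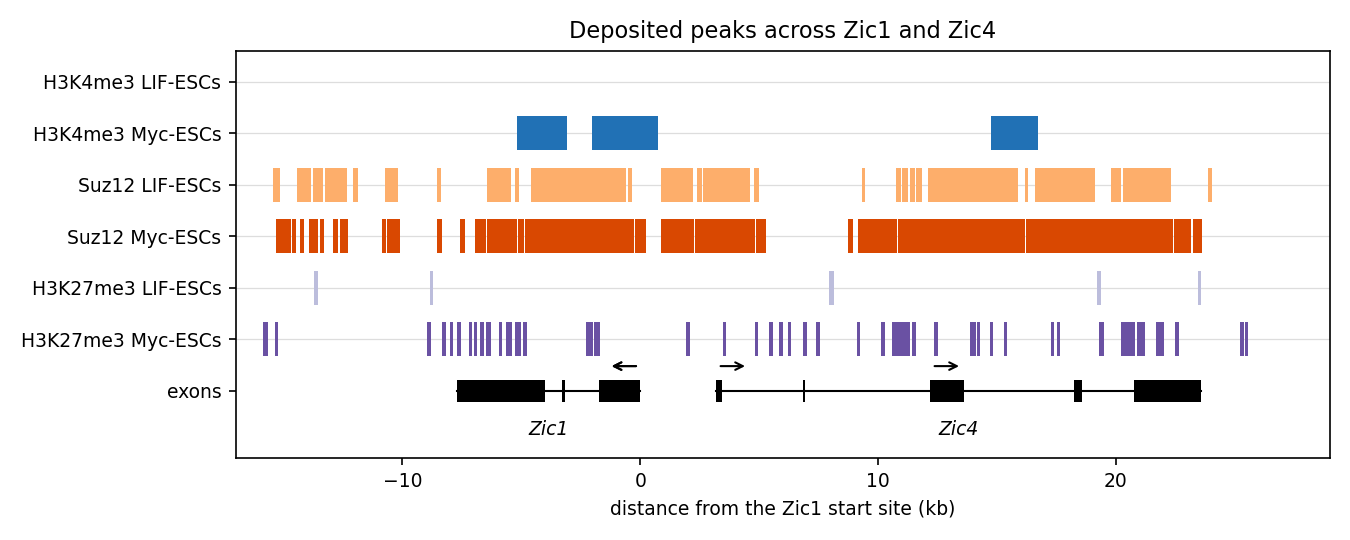
Deposited peaks (coloured blocks, 1 row for each list) and exons of the curated transcripts (black) across Zic1 and Zic4, by distance from the Zic1 start site in kb, with arrows at the start sites pointing along transcription. The LIF-ESC H3K4me3 row is empty, the Suz12 rows cover similar stretches, and the Myc-ESC H3K27me3 row shows a series of short peaks where the LIF-ESC row shows few.

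Zic2 (gene ID 22772), required for forebrain midline and neural tube formation, spans 122475384 to 122480328 on chromosome 14 (plus strand). It was the member with all 3 marks at the start in both cultures. Its H3K4me3 peak was 5928 bp long in LIF-ESCs (score 989) and 9160 bp in Myc-ESCs (score 3100), where it took in the entire body. A second Myc-ESC peak of 3277 bp (score 98.6) followed downstream of the gene. The strongest Suz12 peak had a score of 3100 in both lists and was 3350 bp long in LIF-ESCs against 4458 bp in Myc-ESCs. It began 183 bp downstream of the start in LIF-ESCs and 33 bp upstream of it in Myc-ESCs. H3K27me3 in the start window was 1 peak of 151 bp in LIF-ESCs (122477615 to 122477765, score 69.9) and 2 peaks with 292 bases of the window in Myc-ESCs (scores 113 and 119), all in intron 1. All of them lay at least 2131 bp downstream of the start, so no H3K27me3 remains in either list with a window of 1000 bp.

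Zic5 (gene ID 65100), a relative that acts in neural crest and neural tube, lies on the minus strand from 122459160 to 122465658, with its start 9726 bp from that of Zic2. In LIF-ESCs, 2 H3K4me3 peaks of 4385 bp (score 2547) and 2798 bp (score 135) lay at and upstream of its start. In Myc-ESCs a single peak of 9512 bp (score 3100) took their place. Suz12 was weak beside that of Zic2. The 4 LIF-ESC peaks in the start window had scores of 51.3 to 61.6, and the 6 Myc-ESC peaks 55.3 to 110. They covered 770 and 1345 bases. The nearest H3K27me3 peak lay 5159 bp from the start in LIF-ESCs against 4420 bp in Myc-ESCs, towards Zic2. The non-coding gene 2610035F20Rik lies between the pair on the minus strand and starts beside the Zic2 start, and marks there cannot be told apart between them.

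A chain of Suz12 peaks at gaps of at most 2500 bp joined Zic5, Zic2 and the sequence downstream of Zic2 in both cultures, over 27658 bp in LIF-ESCs against 28513 bp in Myc-ESCs. It held 6 H3K27me3 peaks of 985 bases in LIF-ESCs and 17 of 4916 bases in Myc-ESCs. With lists of equal length the numbers were 6 and 8. Most Myc-ESC H3K27me3 blocks lay outside both genes, as the map of this pair shows. A curated transcript of Pcca, which encodes a subunit of propionyl-CoA carboxylase, starts in this chain on the plus strand, 18707 bp from the Zic5 start, before the longest of these blocks, so they lie within Pcca as well as downstream of Zic2.

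**Figure D4:**
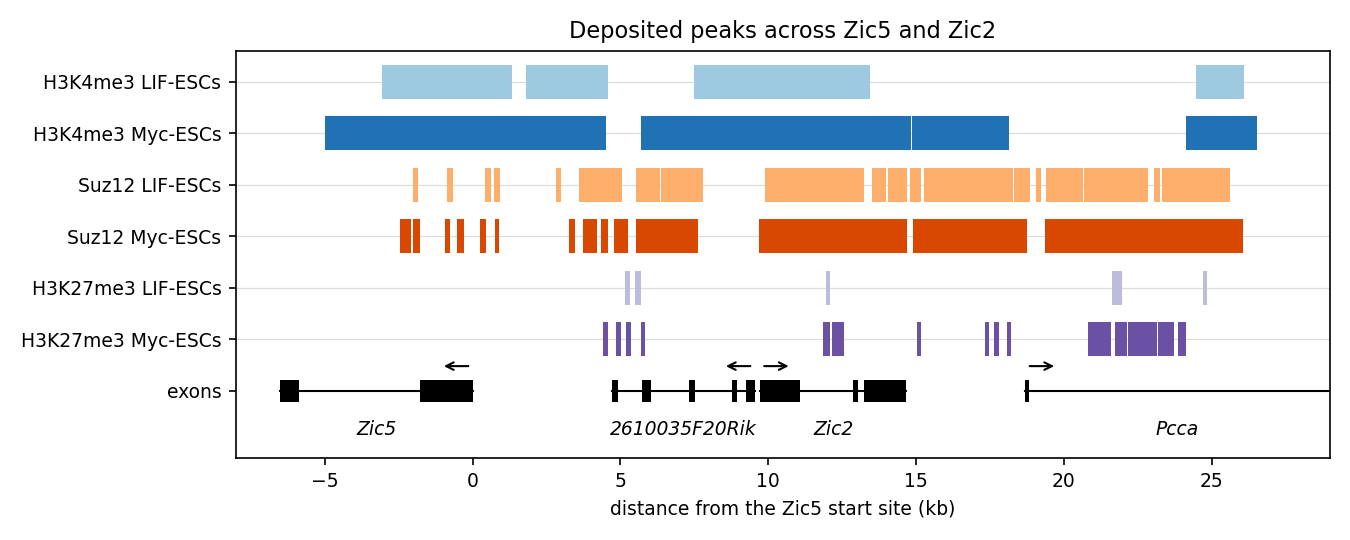
Deposited peaks (coloured blocks, 1 row for each list) and exons (black) across Zic5, 2610035F20Rik, Zic2 and the start of Pcca, by distance from the Zic5 start site in kb, with arrows at the start sites pointing along transcription. H3K4me3 blocks are longer in Myc-ESCs, Suz12 blocks are short over Zic5 and long over Zic2, and the longest Myc-ESC H3K27me3 blocks lie downstream of Zic2, past the Pcca start.

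Among the Sall genes, Sall4 and Sall1 had the longest H3K4me3 peaks. Sall4 (gene ID 99377), the pluripotency factor, lies on the minus strand of chromosome 2 from 168748332 to 168767201. The H3K4me3 peak on it, scored 3100 in both lists, measured 16743 bp in LIF-ESCs and 8833 bp with Myc active. The share of the body under it was 74.3 and 37.4%, and the part missing in Myc-ESCs was the downstream end of intron 1, exon 2 and intron 2. No Suz12 or H3K27me3 peak lay on the gene. The nearest Suz12 peak was 144818 bp from the start in LIF-ESCs against 144240 bp in Myc-ESCs. The non-coding gene Gm14261 overlaps the start on the other strand.

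Sall1 (gene ID 58198), a factor of kidney and limb development, lies on the minus strand of chromosome 8 from 89027242 to 89044162 and has 3 curated start sites within 1300 bp. Its main H3K4me3 peak, scored 3100 in both lists, was 14214 bp long under LIF and 13461 bp under OHT. A second LIF-ESC peak of 10494 bp (score 904) brought the covered share of the body to 99.9%. In Myc-ESCs, 2 peaks of 2792 and 2609 bp (scores 345 and 190) stood in its place, and 69.4% of the body was covered. Suz12 had no LIF-ESC peak within 228072 bp of the first start site. In Myc-ESCs it had 2 short peaks upstream of that start, with scores of 67.1 and 68.7, and the one printed above is 225 bp long. They lie in intron 1 of the non-coding gene Gm3134 on the other strand and inside the H3K4me3 peak. The scores are close to the lowest in the list, and the call is lost when a score of at least 100 is asked. It is kept with lists of equal length. No H3K27me3 peak of either list lay within 212381 bp of the first start.

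Sall2 (gene ID 50524), a neural and tumour-related member of the family, lies on the minus strand of chromosome 14 from 52311177 to 52328670. Its start sites lie 12347 bp apart and behaved differently. At the 5′-most start, H3K4me3 was in the Myc-ESC list only, with a peak of 8083 bp (52324641 to 52332723, score 3100) over the upstream sequence, exon 1 and intron 1. The nearest LIF-ESC H3K4me3 peak lay 10856 bp away. At the downstream start, H3K4me3 was in both lists, with a peak of 4759 bp in LIF-ESCs (score 1350) and 5769 bp in Myc-ESCs (score 1908). There, Suz12 had 3 LIF-ESC peaks in exon 2 and intron 1, of 205, 183 and 680 bp with scores of 64.8, 57.8 and 290.0. No Myc-ESC Suz12 peak lay within 574891 bp of that start. The Suz12 peak of highest score passed a limit of 100. No H3K27me3 peak of either list lay within 207884 bp of either start.

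Sall3 (gene ID 20689), a regulator of nervous system and limb development, lies on the minus strand of chromosome 18 from 80966997 to 80987021 and was the Sall gene with Suz12 in both cultures. In its start window 5 LIF-ESC Suz12 peaks covered 3237 bases, with the strongest at a score of 717, and 3 Myc-ESC peaks covered 4041 bases, with the strongest at a score of 2885. They lay on both sides of the start and left its immediate surroundings free. The main Suz12 domain was 5257 bp long in LIF-ESCs against 8665 bp in Myc-ESCs. Its downstream end in Myc-ESCs is a peak of 162 bp (score 57.5), under the lowest score of 58.6 kept with lists of equal length. The H3K4me3 peak over the start was 8313 bp long in LIF-ESCs (score 953) and 5073 bp in Myc-ESCs (score 414). A second Myc-ESC peak of 1725 bp (score 64.2) overlapped the same LIF-ESC peak. H3K4me3 covered 4466 bases of the start window in LIF-ESCs against 4540 in Myc-ESCs, and 48.1 against 37.5% of the body. H3K27me3 was not in the LIF-ESC list within 1175069 bp of the start. In Myc-ESCs, 3 peaks of 135, 146 and 194 bp with scores of 56.6, 54.2 and 67.3 lay just outside the start window, the nearest 2736 bp upstream. With a window of 5000 bp Sall3 therefore counts among the genes with H3K27me3 in Myc-ESCs only. With all RefSeq transcripts it also does. With lists of equal length Sall3 does not have H3K27me3 on the body.

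**Figure D5:**
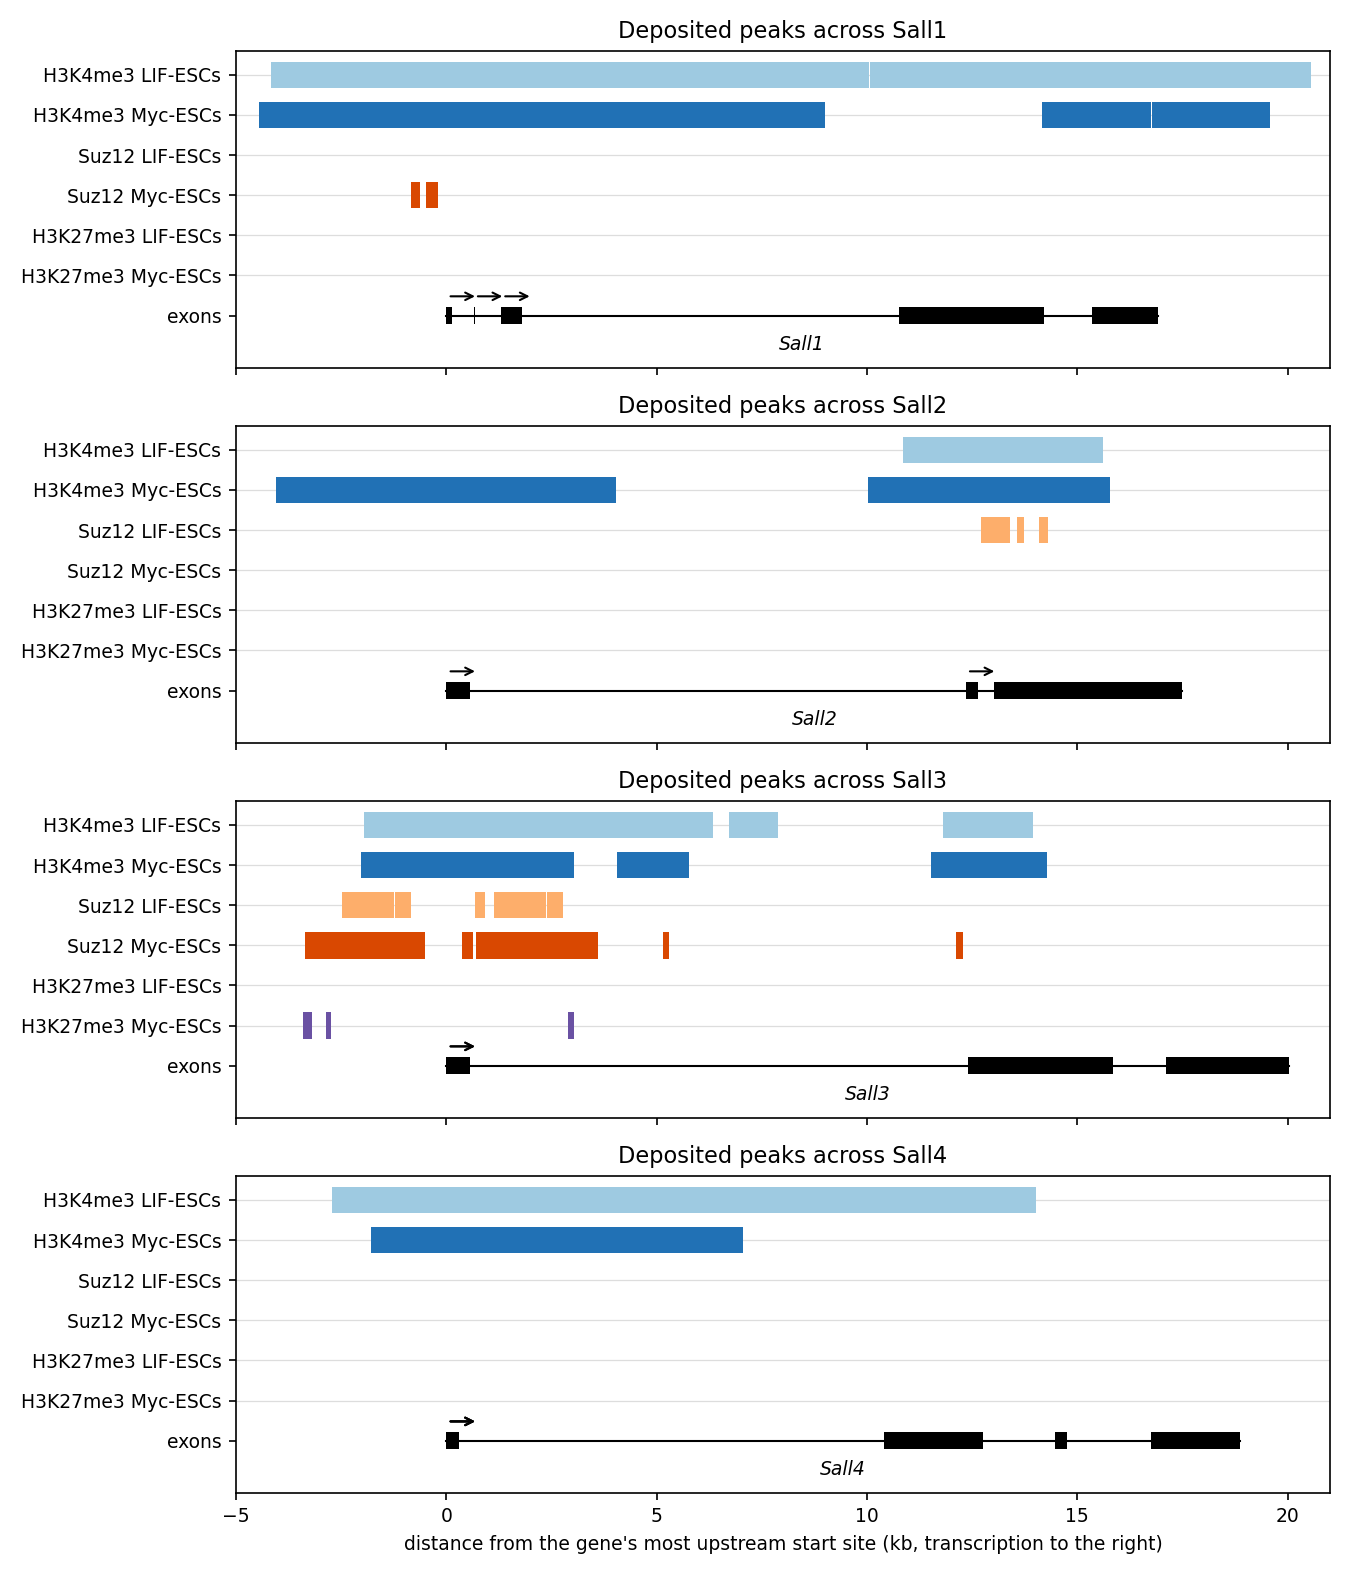
Deposited peaks (coloured blocks, 1 row for each list) and exons of the curated transcripts (black) across Sall1, Sall2, Sall3 and Sall4, by distance in kb from the most upstream start site with transcription to the right and arrows at the start sites. Suz12 blocks stand at Sall1 in Myc-ESCs, at Sall2 in LIF-ESCs and at Sall3 in both, and the H3K4me3 block of Sall4 is 16743 bp long in LIF-ESCs against 8833 bp in Myc-ESCs.

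The marks were then set over one another peak by peak. Of the 40 Myc-ESC H3K27me3 peaks at these genes, 34 overlapped a Myc-ESC Suz12 peak, against 48.0% of all H3K27me3 peaks in that list. A LIF-ESC Suz12 peak was overlapped by 24 of the 40, against 32.5% of the list. Of the 40, 37 lay at Zic1 and Zic4, whose bodies were 90.9 and 80.9% under Suz12 in Myc-ESCs. In LIF-ESCs these shares were 70.1 and 56.9%. A peak placed anywhere there would often overlap Suz12. Of the 37 LIF-ESC Suz12 peaks, 14 overlapped a LIF-ESC H3K4me3 peak, against 67.3% of that list. Zic1 and Zic4 hold 20 of the 37 and had no LIF-ESC H3K4me3 peak, so no overlap was possible there. The 14 lay among the 8 Suz12 peaks of the Sall genes and the 9 of Zic2 and Zic5. Of the 35 Myc-ESC Suz12 peaks, 23 overlapped a Myc-ESC H3K4me3 peak, against 72.6%. These peaks are neighbours on a few loci and were not tested.

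The base composition of the member peaks was set beside that of all peaks of the same list. The 40 Myc-ESC H3K27me3 peaks had a median of 42.7% G+C, against 43.4% over all peaks of that list. Their median CpG ratio was 0.227, against 0.214. The 35 Myc-ESC Suz12 peaks had a median of 46.8% G+C, against 52.3% over the list, and a CpG ratio of 0.581, against 0.477. The 37 LIF-ESC Suz12 peaks had a median of 49.0% G+C and a CpG ratio of 0.572, against 53.1% and 0.512. The 10 LIF-ESC and 14 Myc-ESC H3K4me3 peaks had medians of 50.7 and 50.1% G+C and CpG ratios of 0.45 and 0.565, against 0.42 and 0.419 over their lists. The 4 LIF-ESC H3K27me3 peaks had a median of 40.6% G+C and a CpG ratio of 0, against 43.7% and 0.239 over that list.

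Related genes were counted as lists. The Gli and Glis genes, zinc-finger factors close in sequence to the Zic family, had H3K4me3 at 6 of 6 in both cultures. Suz12 was at 3 in LIF-ESCs against 4 in Myc-ESCs, Gli2 being the addition (0 and 1722 bases). H3K27me3 was at 1 in LIF-ESCs (Glis1, 134 bases) and at 3 in Myc-ESCs, where Glis1 had 1388, Gli3 448 and Glis3 406 bases. Of 13 genes for subunits of NuRD, which Sall proteins bind, all had H3K4me3 in both cultures. Suz12 was at 1 of them, Chd3, in both. H3K27me3 was at Hdac2 in both cultures (146 and 342 bases), and in Myc-ESCs also at Chd3 (718 bases) and Rbbp7 (168 bases).

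For each member, the gene with the most similar pattern was the one with the smallest summed difference in bases under peaks in the start windows over the 6 lists, out of 26167 genes without a start site within 10000 bp of a member's. For Zic1 this was Hoxc6 (summed difference 992 bp), which also had no H3K4me3 in LIF-ESCs, 3091 bases in Myc-ESCs, and H3K27me3 in Myc-ESCs only. For Zic4 it was Tfap2b (4930 bp), for Zic2 Fst (1095 bp) and for Zic5 Gm32139 (672 bp). For Sall1 it was Ppp1r10 (610 bp), for Sall2 Sulf1 (2961 bp), for Sall3 Dpf3 (730 bp) and for Sall4 Npepps (6 bp). A small sum does not mean the same calls. Ppp1r10 had no Suz12, where Sall1 had 512 bases in Myc-ESCs. Fst had no H3K27me3 in LIF-ESCs, where Zic2 had 151 bases. In Myc-ESCs, Gm32139 and Dpf3 had 150 and 156 bases of H3K27me3, where Zic5 and Sall3 had none. Sulf1 had, as Sall2 did, Suz12 in LIF-ESCs only (721 bases) and more H3K4me3 in Myc-ESCs (3832 and 7375 bases). The differences for Zic4 and Sall2 are large, so no close match was found for either.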

How the data were processed

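Chromatin immunoprecipitation was followed by sequencing (ChIP-seq) for H3K4me3, Suz12 and H3K27me3 in LIF-ESCs and Myc-ESCs. Per the study's methods and the submitters' processing notes, the authors aligned HiSeq reads to GRCm38 (mm10) with Bowtie2 2.2.3 and called peaks with MACS 1.4.2. The deposited score of each peak is the authors' value from MACS. How the 2 libraries of each culture and antibody were combined into 1 list is not given in the sources used here, and no depth could be read from the lists. Coordinates were converted to count from 1. Transcripts were taken from RefSeq GRCm38.p6 (accessions NM_ and NR_). A gene had a mark if a peak overlapped the window of 2500 bp on each side of any start site, or its body, by at least 1 bp. Bases under peaks, scores and distances were read with Python 3.11.15 (pandas 2.3.3, NumPy 2.4.6, pysam 0.24.0), tested on simulated intervals. No test was run. The members and lists were chosen with earlier results of these data known. All members are described, with the 1 most similar gene each and the related genes whose marks differ between the cultures. The alternatives were windows of 1000 and 5000 bp, a score of at least 100, an overlap of at least 100 bp, lists of equal length, other transcript sets and bodies without start windows. Protein sequences were not analysed here.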

Additional observations from a re-analysis of the deposited data

How the results depend on the processing

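No paired analysis was possible because the lists exist for each culture and antibody and not for each library, so no replicate could be left out either. Of 98 values of the 16 counts of members under the alternatives, 85 stayed within 1.5 times the value reported and 13 did not, all of them for H3K27me3, whose counts are small. H3K27me3 at the start in LIF-ESCs was at 0 members with a window of 1000 bp and with a score of at least 100, and at 2 with a window of 5000 bp, with all RefSeq transcripts and with GENCODE. In Myc-ESCs it was at 1 with 1000 bp and at 5 with 5000 bp, as was the count of members with more bases under H3K27me3. H3K27me3 in Myc-ESCs only was at 1 member with 1000 bp (Zic4) and at 1 with GENCODE (Zic1). On the body in LIF-ESCs it was at 1 without the start windows and at 0 with a score of at least 100. With lists of equal length, chosen after the data were seen, the Myc-ESC H3K27me3 peaks fell in number from 40 to 10 over all members, from 11 to 3 on the Zic1 body, from 25 to 5 on the Zic4 body, from 18 to 3 and 18 to 5 in the Zic1 and Zic4 domains and from 17 to 8 in the Zic5 and Zic2 chain. Members can change while a count stays within 1.5 times. Sall2 loses H3K4me3 and Suz12 in LIF-ESCs with the longest transcript only. With a score of at least 100 Zic5 has Suz12 in Myc-ESCs only in place of Sall1. H3K27me3 in Myc-ESCs only was at Sall3 and Zic1, and no longer at Zic4, with all RefSeq transcripts. It was at Sall3, Zic1 and Zic5 with 5000 bp, and at Zic1, Zic2 and Zic4 with a score of at least 100. The changed window, transcript set or score limit is itself the difference. The unknown depth limits any reading of an absent peak, above all for H3K27me3 in LIF-ESCs.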

Other observations

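Further values describe peaks at the Zic genes, beginning with peaks given above by their coordinates. In Myc-ESCs, the H3K27me3 peaks of the highest score at Zic1 (128) and Zic4 (233) lay 1974 and 7532 bp downstream of their first start sites. Downstream of the Zic2 end, Suz12 had a peak of 3036 bp in LIF-ESCs (122480922 to 122483957, score 2484) and of 3342 bp in Myc-ESCs (122480862 to 122484203, score 3140), within the same chain of Suz12 peaks as the gene. Downstream of Zic1, the LIF-ESC list had an H3K27me3 peak of 129 bp (score 63.6) that overlapped a Myc-ESC peak of 177 bp (score 67.4), and the Myc-ESC list had 2 more between it and the end of the gene.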
